A study of Bos taurus with 18 samples.

Results

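Transcript levels were described in cumulus cells of cows taken from follicles of 3 to 5 mm after 20 h of coasting, a period of follicle growth without FSH. The data came from 18 two-colour Agilent arrays, and only the channel that held 20 h RNA was read, which gave 18 of the 36 channels of the series. The donors were 6 Holstein cows, 4 years old on average, each exposed to all coasting durations in random order. In the luteal phase each cow had its dominant follicle aspirated and, 36 h later, began 6 doses of 40 mg FSH at intervals of 12 h over 3 days, followed by 20 h without FSH. Cumulus cells were shaken free of the oocyte, frozen and extracted, and the RNA was amplified in 2 rounds and labelled chemically with Cy5 or Cy3. The partner channel held RNA from follicles coasted for 44, 68 or 92 h and was not used here. The 20 h RNA was in Cy5 on 9 arrays and in Cy3 on 9, as 9 labelled samples with both dyes each: 3 numbered replicates beside each partner time. The labels do not tie single cows to replicate numbers.

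Cumulus cells are the granulosa cells that surround the oocyte. They pass pyruvate, amino acids and sterol intermediates to it through thin projections that end in gap junctions, and they hold it in meiotic arrest with cyclic nucleotides. Granulosa cells respond to FSH with aromatase, inhibin subunits and division. After the gonadotropin surge cumulus cells instead secrete a hyaluronan matrix, a process called cumulus expansion.

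The array carried 43794 gene probes, of which 21790 had 1 gene symbol and 22004 were left unnamed. A probe with several symbols would be counted among the unnamed. The named probes stood for 15213 genes. A probe counted as above background in a channel when its background-subtracted intensity exceeded that channel's limit, the mean plus 2 SD of 153 negative control spots. Between 35.1% and 58.9% of probes passed the limit in the Cy5 channels and between 56.3% and 68.7% in the Cy3 channels. The limit lay between 114.5 and 199.5 intensity units in Cy5 and between 89.5 and 181.4 in Cy3. A gene's level is the mean percentile, among the gene probes of each channel, of its brightest probe. Probe brightness depends on the probe as well as on the transcript, so the levels sort genes into classes and do not rank single genes against each other.

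The 9 labelled samples fell into 3 sets of 3 whose profiles were nearly alike. The first set, called RNA 1, held number 1 of the 44 h arrays, number 3 of the 68 h arrays and number 1 of the 92 h arrays. RNA 2 held numbers 2, 1 and 2 of those array sets, and RNA 3 held numbers 3, 2 and 3. Across 10282 genes, 9 of the 36 pairs of samples lay within a set, and between 0 and 669 genes differed in those pairs (limma, Benjamini-Hochberg adjusted p under 0.05). In the other 27 pairs between 3306 and 5084 genes differed. Of the pairs within a set, those between the 44 h and 68 h arrays had 0, 0 and 4 such genes, and those that involved the 92 h arrays had 109 to 669. The SD of the log2 difference was 0.09 to 0.16 within sets and 0.32 to 0.45 between them. The labels do not state that samples share RNA. The 9 samples were therefore counted as 3 RNAs (n = 3), each measured in 6 channels, and every SD of a percentile below is over these 3 RNAs.

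**Figure D1:**
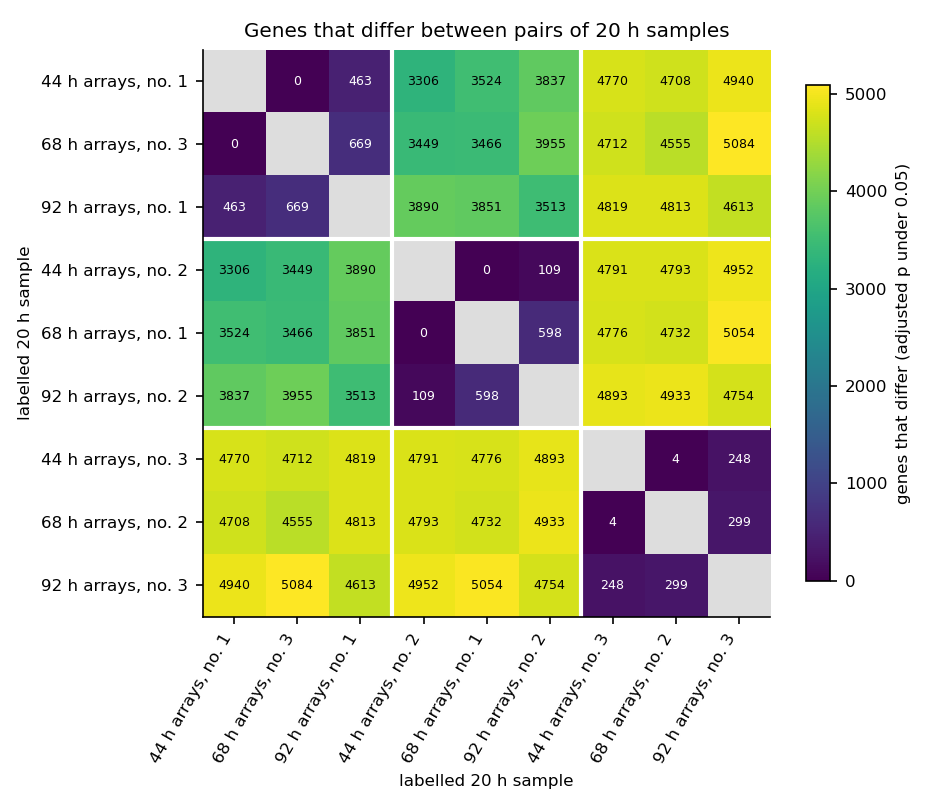
Number of genes, of 10282 tested, that differed between each pair of the 9 labelled 20 h samples (limma, adjusted p under 0.05), with samples on both axes ordered by RNA and white lines between the RNAs. The 3 dark blocks along the diagonal hold 0 to 669 genes, and all other cells hold 3306 to 5084.

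Of the 15213 genes, 2570 (16.9%) were abundant, that is, above the limit in all 18 channels with a mean percentile of at least 90. Another 7712 (50.7%) were middling, above the limit in at least 9 channels, which makes 10282 genes (67.6%) above it in at least 9. A further 2607 (17.1%) were borderline, above the limit in 1 to 8 channels or by a dimmer probe only, and 2324 (15.3%) were under background, with no probe above the limit in any channel. The median signal was 23.0 times the limit for abundant genes, 1.52 times for middling, 0.92 times for borderline and 0.77 times for those under background. Of the middling genes, 4719 had signals at or below 2 times the limit and 2993 lay over it. Dim middling genes were thus close to the negative controls, and with the limit doubled 8123 genes were under background while the abundant class stayed at 2570.

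**Figure D2:**
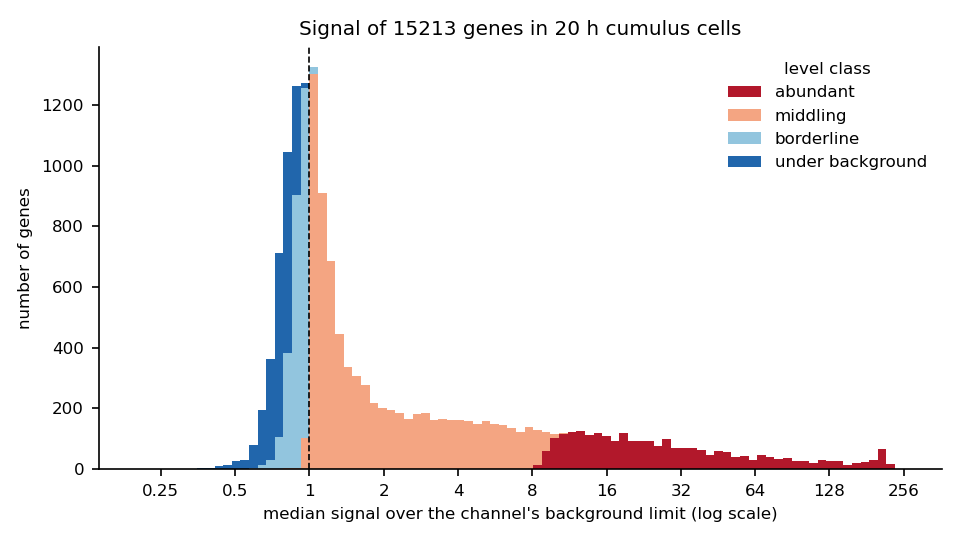
Median signal of each gene over its channel's background limit (log axis) against the number of genes, coloured by level class, with the limit as a dashed line. Most middling genes sit just above the limit, and the abundant genes form a broad tail with a median of 23.0 times the limit.

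The border of the abundant class cuts a continuum. Just inside it, at 90 after rounding, stood GPX1, a glutathione peroxidase, with an SD of 4.26 over the 3 RNAs, and CENPL, a centromere protein, with an SD of 0.89. Just outside stood ERCC8, a DNA repair protein, with an SD of 2.04, and RNF2, a ubiquitin ligase of the Polycomb complex, at 89.99 ± 1.13 (SD, n = 3). Probes of a gene often differed: of 4035 genes with several probes, 1098 had all of them in 1 class. Of the 1183 such genes called abundant by the brightest probe, 87 had every probe abundant and 231 had a probe under background. The abundant class counted by single RNA was 2588, 2523 and 2673 genes in RNA 1, 2 and 3, with 2303 genes abundant in all 3 and 2919 in at least 1.

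At the top of the range the order could not be read, because signals crowded together: 81 probes had a median signal between 34000 and 38000 units and none lay higher. The 30 genes of highest percentile lay between 99.73 and 99.93. They included LDHA (lactate dehydrogenase A, 99.93 ± 0.04), SCD (the stearoyl-CoA desaturase, 99.93 ± 0.03), PDIA6 (a disulfide isomerase of the endoplasmic reticulum, 99.93 ± 0.03) and SERPINE2 (an inhibitor of secreted serine proteases, 99.92 ± 0.05). The membrane receptor for retinol binding protein, STRA6, was among them at 99.87, as were the chaperone HSPA8 at 99.84, the nucleosome binding protein HMGN1 at 99.83 and the intermediate filament protein VIM at 99.82. INHA, the alpha subunit shared by the inhibins, was at 99.80, GNAS, the stimulatory G protein alpha subunit, at 99.74, the mitophagy receptor BNIP3L at 99.78, and HIF1A, the oxygen-regulated transcription factor, at 99.73. The ribosomal proteins RPS13, RPL15, RPLP0, RPS6 and RPL9 and the initiation factor EIF1 belonged to them, and so did GNG10, a G protein gamma subunit, and PPIA, a peptidyl-prolyl isomerase. Probes of a gene disagreed here too: the dimmest lay at a percentile of 69.2 for STRA6, 54.06 for HMGN1, 51.03 for GNAS, 74.4 for RPL15, 82.8 for BNIP3L and 84.0 for HIF1A. RPS4Y1, a Y-linked name, stood at 99.82 in RNA of cows. Its close relative RPS4X has no named probe here, and the cross-reaction of the RPS4Y1 probe was not tested. The other 9 carried LOC names, and RefSeq (ARS-UCD2.0) lists 7 of them as pseudogenes: LOC784266, LOC507784, LOC614366, LOC781580, LOC525649, LOC100138864 and LOC783462. Pseudogenes made up 3.85% of the abundant genes, against 1.41% of all genes, and abundant genes had 1.82 probes per gene, against 1.43 over all genes.

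The lists described next hold 1048 genes with a named probe, and 92 further list genes had none, GAPDH, PKM and GATA6 among them. They are read against the 16.9% of all genes that were abundant, the 15.3% under background and the median percentile of 60.8 over all genes. Each gene stands here by its brightest probe. With the middle probe 10.3% of all genes were abundant, and a list's count is given beside the main one where it falls by more than 1.5 times.

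**Figure D3:**
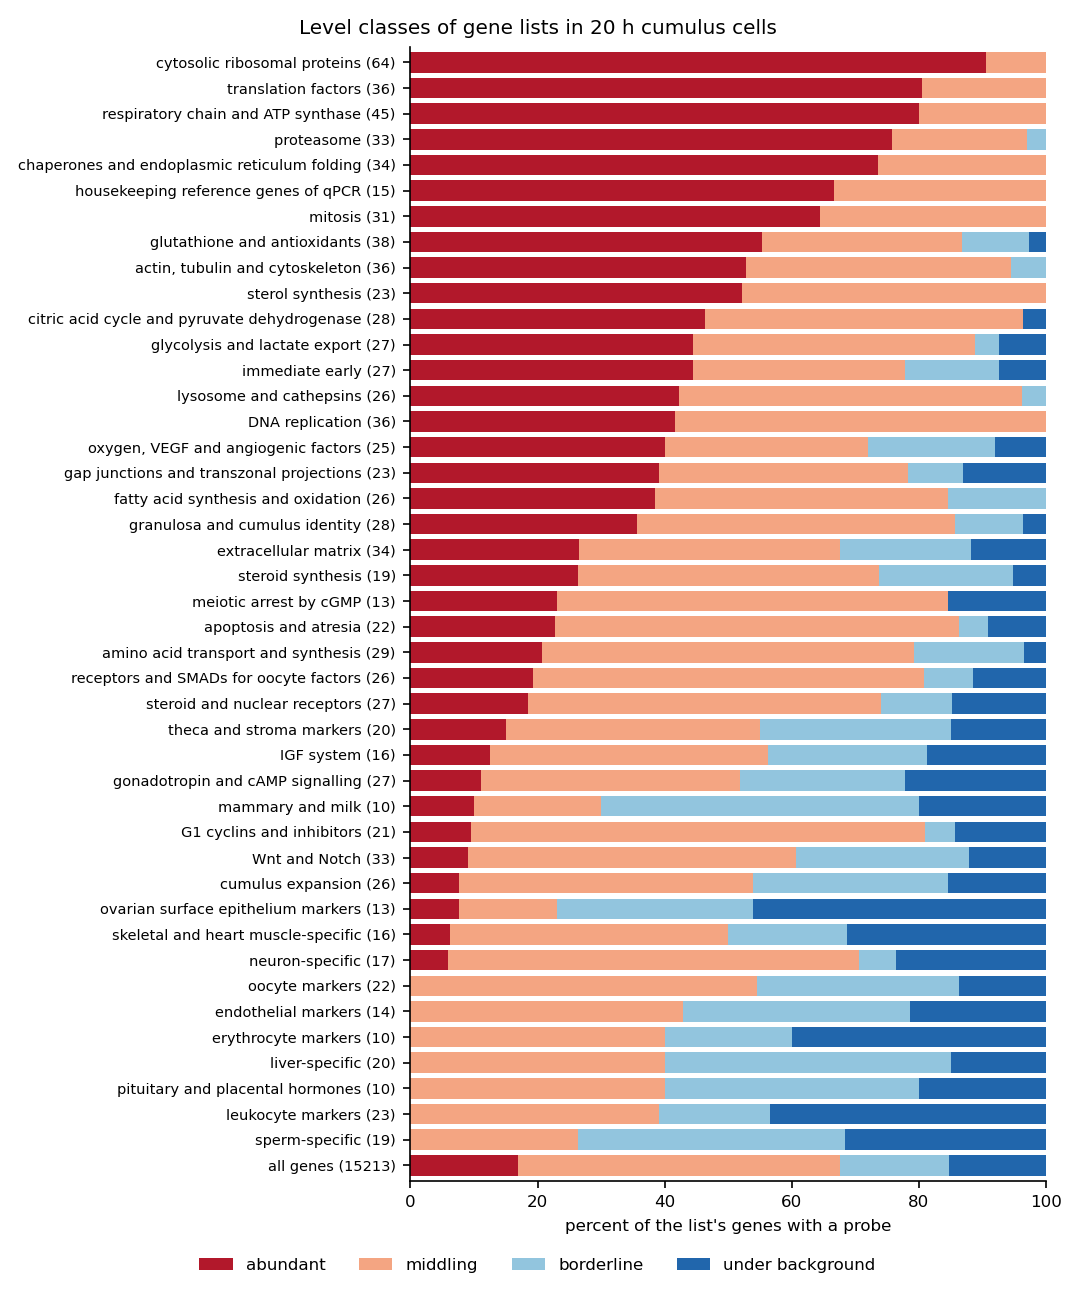
Share of each gene list in the 4 level classes, with the number of genes that had a probe in brackets, ordered by the share of abundant genes from top to bottom, and all 15213 genes at the foot. Ribosomal proteins were abundant in 58 of 64 cases at the top, and 7 lists of genes used by other cell types had no abundant member, against 16.9% of all genes.

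Genes of granulosa and cumulus identity were abundant more often than all genes. Of 28 granulosa and cumulus genes, 10 were abundant (35.7%, against 16.9% of all genes), 14 middling, 3 borderline and 1 under background, with a median percentile of 84.2. INHA had log2 signals of 14.96, 15.12 and 15.01 in RNA 1, 2 and 3 and INHBA, the inhibin and activin beta A subunit, had 14.60, 15.08 and 14.44. On this log2 scale, after quantile normalization, genes under background had a median of 7.66 and abundant genes one of 11.84. Both subunits were thus near the top in each RNA. INHBB, the beta B subunit, was abundant at a percentile of 92.8 ± 5.33 and FST, the activin-binding follistatin, at 97.65 ± 1.59. Also abundant were NR5A2 (98.51 ± 0.09) and GATA4 (98.73 ± 0.72), which are transcription factors of steroidogenic cells, CCND2, the cyclin D that granulosa cells use under FSH, CDH2, the N-cadherin of granulosa junctions, SERPINE2 and IHH, a hedgehog ligand made by granulosa cells (98.67 ± 0.14). FSHR, the FSH receptor, was middling and even, with 10.11, 10.21 and 10.13 log2 units and a percentile of 88.0 ± 0.30. AMH, the anti-Müllerian hormone, lay at the border (89.92 ± 3.19). FOXL2, the granulosa determinant, was above the limit in 6 of 18 channels and NR5A1 in 9. KITLG, the ligand of the oocyte's KIT receptor, was above it in 16 channels at 1.14 times the limit. These few probes sit at the limit, and whether they report their transcript well was not tested.

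**Figure D4:**
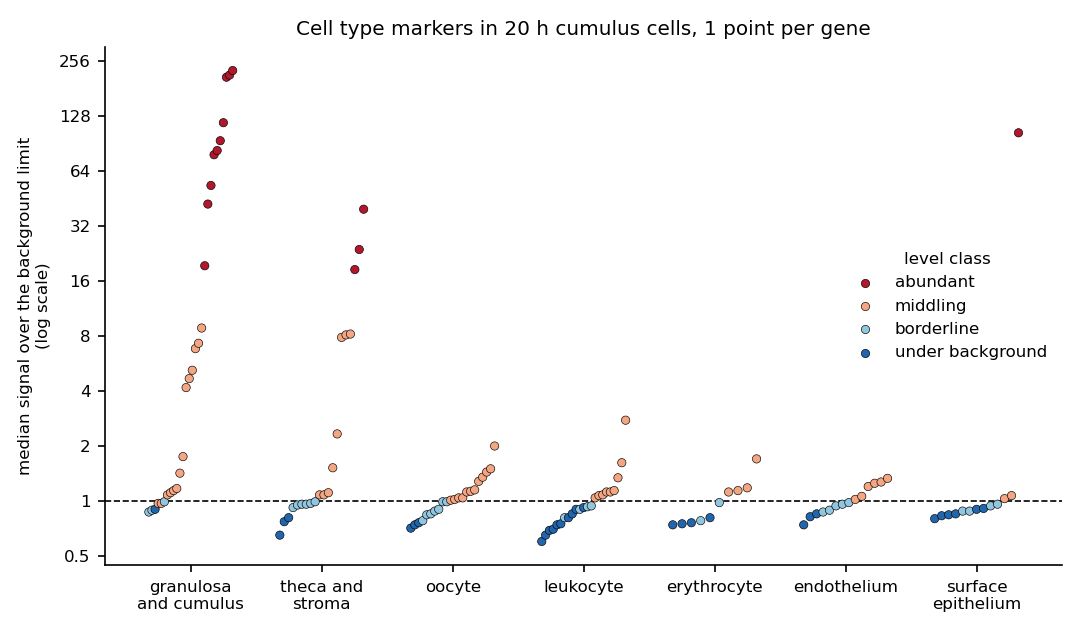
Median signal over the background limit (log axis) of each marker gene of granulosa and cumulus cells and of 6 other cell types, 1 point per gene, coloured by class, with the limit as a dashed line. SERPINE2 on the granulosa and cumulus list reaches 227.88 times the limit, while no point of the oocyte, leukocyte, erythrocyte and endothelial markers lies beyond the 2.77 times of CXCR4.

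Markers of other cells were mostly at or near background. None of 22 oocyte genes was abundant and 12 (54.5%) were middling, against 67.6% of all genes above the limit in at least 9 channels. GDF9, the oocyte's growth factor, NLRP5 and PADI6 were above the limit in 0 of 18 channels, ZP2 in 8 and BMP15 in 10. KIT, also found on other ovarian cells, was at 2.00 times the limit. The summed level of these 22 genes was 24.8, 23.4 and 22.8 times the limit in RNA 1, 2 and 3. Among 23 leukocyte genes none was abundant, 9 (39.1%) were middling and 10 were under background in all 18 channels. CD14, CSF1R, TYROBP, ITGAM and LCP1 were among those 10, while the pan-leukocyte PTPRC was at 1.34 times the limit. The summed level of the 23 genes was 24.3, 23.7 and 23.4. The 14 endothelial genes summed to 14.5, 14.2 and 14.0, with PECAM1, KDR and EMCN above the limit in no channel, and the 10 erythrocyte genes to 10.1, 10.8 and 9.8, with the globin HBA at 1.70 times the limit and HBB at 0.98. No gene of these 2 lists was abundant, and 6 endothelial and 4 erythrocyte genes were middling. UPK1B, a uroplakin, was the 1 abundant gene of 13 on the surface epithelium list (98.79 ± 0.42), while KRT5, KRT14, MSLN, UPK3B, CDH1 and MUC1 were above the limit in 0 channels.

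Theca and stroma genes were mixed. CYP17A1, the androgen enzyme of theca cells, was above the limit in 5 channels at 0.96 times the limit, INSL3 in 11 at 1.08 times, and DCN, MGP and ALPL in 0. The 3 abundant genes of that list were ACTA2, the smooth muscle actin (96.75 ± 0.49), LUM, the matrix proteoglycan lumican (92.82 ± 4.91), and PTCH1, the hedgehog receptor and a target of hedgehog signalling (93.98 ± 0.80). PDGFRA, TCF21 and CNN1 were middling at 8.21, 8.12 and 7.87 times the limit. The summed level of the 20 theca and stroma genes was 109.5, 133.4 and 108.7 in RNA 1, 2 and 3. Of 92 genes of liver, muscle, neurons, sperm, milk and pituitary or placental hormones, 40 (43.5%) passed the limit in at least 9 channels, with a median of 0.96 times the limit and 10 over 2 times, against 67.6% of all genes passing. The 3 abundant genes of the 92 were TNNI3, a cardiac troponin (97.53 ± 0.63), TUBB3, a tubulin of neurons (94.96 ± 2.44), and LTF, lactoferrin (90.18 ± 1.68). Because such genes also passed, the counts below are led by the abundant class.

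The enzymes of steroid synthesis were present at uneven levels. Of 19 genes 5 were abundant: HSD3B1, which makes progesterone from pregnenolone (93.07 ± 1.17), the electron carriers FDX1 (96.51 ± 0.69) and CYB5A (98.35 ± 0.27), HSD17B4 and HSD17B7. CYP11A1, the side-chain cleavage enzyme that starts steroid synthesis, was at 10.3 times the limit, and STAR, which delivers cholesterol to it, was at 1.54 times. CYP19A1, aromatase, had a percentile of 84.35 ± 11.13 and HSD17B1, which makes oestradiol from oestrone, 85.53 ± 6.64. The wide SD of both is taken up with the differences between RNAs below.

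Of 27 genes of gonadotropin and cAMP signalling 3 (11.1%) were abundant: GNAS, the adenylyl cyclase ADCY6 (92.54 ± 0.16) and the CREB relative ATF1 (97.74 ± 0.25). With the middle probe none of the 27 was abundant, and the dimmest probes of GNAS and ADCY6 lay at percentiles of 51.03 and 28.26. LHCGR, the LH receptor, was above the limit in 2 of 18 channels at 0.86 times the limit. PDE8A and PDE4B, enzymes that degrade cAMP in granulosa cells, were at 4.60 and 3.46 times the limit and PDE3A, the oocyte's enzyme, at 1.02 times. For the cGMP signal that holds the oocyte in arrest, the receptor NPR2 was at 1.27 times the limit and its ligand NPPC at 1.00 times. Of the enzymes of GMP synthesis IMPDH2 (91.72 ± 0.93) and GMPS (92.46 ± 0.49) were abundant and IMPDH1 was middling (89.29 ± 3.31). GUCY1B1, a subunit of soluble guanylyl cyclase, was abundant (91.94 ± 1.93), and its partner GUCY1A1 was above the limit in no channel.

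Receptors and messengers for the oocyte's growth factors were mostly middling: 5 of 26 were abundant, and 2 with the middle probe. The receptors BMPR2, BMPR1A and BMPR1B were at 1.42, 4.05 and 1.13 times the limit and the activin receptors ACVR1B and ACVR2A at 7.62 and 2.57 times, while ACVR1 was abundant (91.27 ± 1.56). Of the messengers SMAD2 (98.41 ± 0.11) and SMAD1 (90.99 ± 1.32) were abundant, SMAD4 was at 4.85 times the limit, SMAD3 was above it in 8 channels and SMAD5 in 0. ID2 (97.88 ± 0.09) and ID3 (96.39 ± 1.43), targets of BMP signalling, were abundant.

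Of 23 genes of gap junctions and of the projections to the oocyte 9 were abundant (39.1%), 9 middling, 2 borderline and 3 under background, and 4 were abundant with the middle probe. GJA1, connexin 43, had log2 signals of 14.18, 14.30 and 13.54 in RNA 1, 2 and 3 and was abundant. GJA4, the oocyte's connexin 37, was above the limit in 5 channels. The cadherin linkers CTNNB1 (99.08 ± 0.32) and CTNNA1 (99.49 ± 0.15) and the tight junction scaffold TJP1 (97.58 ± 0.23) were abundant. MYO10, the motor of filopodia (97.38 ± 0.85), the membrane-to-actin linkers RDX and EZR, and the GTPase RHOA were abundant too. CDH1, E-cadherin, was above the limit in no channel.

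Genes of cumulus expansion were low. Of 26 genes 2 were abundant (7.7%, 1 gene with the middle probe), the median percentile was 47.0, and 3 stayed above a doubled limit in at least 9 channels. HAS2, the hyaluronan synthase of expansion, was at 1.02 times the limit with 7.90, 7.87 and 7.89 log2 units, PTGS2, the inducible cyclooxygenase, was above the limit in 0 channels, and PTX3 was at 1.21 times. TNFAIP6, the hyaluronan cross-linker, was above the limit in 8 channels, with 7.81, 8.52 and 7.85 log2 units in RNA 1, 2 and 3. The EGF-like ligand AREG was above the limit in no channel and EGFR was at 1.08 times. The abundant pair were BTC, betacellulin, another EGF-like ligand (93.51 ± 0.84), and VCAN, the proteoglycan versican (93.63 ± 3.14). PGR, the progesterone receptor, was middling at 6.32 times the limit.

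Energy metabolism showed high levels in glycolysis and in the respiratory chain. Of 27 glycolysis and lactate genes 12 were abundant (44.4%): the glucose transporter SLC2A3 (99.01 ± 0.10), PFKL (99.56 ± 0.12), TPI1, PGK1, PGAM1, ENO1, ALDOA, GPI, both LDHA and LDHB (99.52 ± 0.22), and the lactate and pyruvate carriers SLC16A1 and SLC16A3 (98.13 ± 0.51). The insulin-regulated transporter SLC2A4 was under the limit in all channels, as was the carrier SLC16A7. Of 45 respiratory chain and ATP synthase genes 36 were abundant, among them COX5A (99.72 ± 0.06), CYCS (99.23 ± 0.20) and ATP5F1A (99.57 ± 0.09). Of 28 genes of the citric acid cycle and pyruvate dehydrogenase 13 (46.4%) were abundant, and 7 with the middle probe, with IDH1 (99.23 ± 0.22), SUCLG2, MDH1 and SDHB among them. IDH2, the mitochondrial isocitrate dehydrogenase, was the 1 gene of that list above the limit in no channel.

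Of 23 sterol synthesis genes 12 were abundant (52.2%) and 11 middling, and 20 were above the limit in all channels. With the middle probe 5 were abundant and 19 passed the limit in at least 9 channels. HMGCS1, which feeds the mevalonate pathway, had log2 signals of 14.61, 13.94 and 14.00, CYP51A1 of 14.69, 13.89 and 14.52, and MSMO1 of 14.53, 14.04 and 14.72. SREBF2, the factor that drives the pathway, was abundant (99.04 ± 0.39), as was its retention partner INSIG1 (95.70 ± 2.79). In fatty acid metabolism SCD and ACLY (96.59 ± 0.54) were abundant and so were the oxidation enzymes HADHB, ECHS1, ACADM and HADH. CPT1A and CPT1B, which admit fatty acids to mitochondria, were above the limit in 4 and 3 channels. PLIN2, the lipid droplet coat, was abundant (94.72 ± 1.40). Of 29 amino acid genes 6 were abundant, among them the glutamine carrier SLC38A2 (99.30 ± 0.13) and the proline enzyme ALDH18A1 (99.29 ± 0.07). SLC38A3, which cumulus cells are known to use for the oocyte in mice, was above the limit in no channel.

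Antioxidant genes stood high. Of 38 genes 21 were abundant (55.3%), among them CAT, catalase (99.03 ± 0.20), the peroxiredoxin PRDX4 (99.61 ± 0.03), the thioredoxin reductase TXNRD1 (99.01 ± 0.15), TXN, SOD1, SOD2, GPX4 and the transferase GSTM3 (98.69 ± 0.34). GSTP1 lay just under the border at 89.45 ± 0.57.

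Genes of protein synthesis and turnover were mostly abundant. Ribosomal proteins were abundant in 58 of 64 cases (90.6%, median percentile 99.1), translation factors in 29 of 36 (80.6%), proteasome subunits in 25 of 33 (75.8%) and chaperones and folding enzymes in 25 of 34 (73.5%). With the middle probe 18 translation factors and 14 proteasome subunits were abundant. Ribosomal protein genes have many pseudogenes and near-identical copies, so their probes may report several transcripts. PSMB8, an immunoproteasome subunit, was above the limit in 4 channels and PSMB9 was at 1.57 times the limit, while PSMB10 was abundant (92.27 ± 2.33). XBP1, the transcription factor of the unfolded protein response, was abundant (99.58 ± 0.10) and DDIT3, its stress effector, was at 2.49 times the limit. Among qPCR reference genes 10 of 15 were abundant (6 with the middle probe), PPIA, HPRT1, H2AZ1 and RPLP0 with SDs of 0.02 to 0.10, while ACTB was at 89.0 ± 1.49 and YWHAZ at 71.8 ± 6.31. Percentiles crowd at the top, so small SDs there do not show steadier levels than larger SDs lower down. In the F-test given below 10 of the 15 differed (66.7%, against 65.1% of all tested genes), 2 of them by at least 2-fold.

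Genes of cell division were prominent. Of 31 mitosis genes 20 were abundant (64.5%) and none was borderline or lower, and of 36 replication genes 15 were abundant (41.7%) and 21 middling. With the middle probe 8 replication genes were abundant. CCNB1, the mitotic cyclin, had log2 signals of 13.10, 13.05 and 13.76, BUB1, a checkpoint kinase, of 13.30, 13.30 and 14.09, and PRC1, a bundler of the central spindle, of 13.55, 13.80 and 14.19. PCNA, the replication clamp, was near the top (99.60 ± 0.13). Of the genes often used to mark division 3 were low, with MKI67 at 1.13 times the limit, PLK1 at 1.09 times and TOP2A at 1.59 times. In the G1 list 2 of 21 were abundant (1 with the middle probe), CCND2 and CDK4 (91.47 ± 0.57), and CCND1 was above the limit in 0 channels.

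Genes of apoptosis were mostly middling, with 5 of 22 abundant: the death receptor FAS (99.22 ± 0.25), the survival factor MCL1, BID, CYCS and TNFRSF1A. IGFBP5, which is used to mark atretic follicles in cattle, was above the limit in no channel. Of 27 immediate early genes 12 were abundant (44.4%), among them NR4A1 (99.56 ± 0.28), FOS (99.08 ± 0.29), ATF3 (99.04 ± 0.73), BTG2 (98.94 ± 0.55), IER2 and EGR1 (95.93 ± 0.93). Immediate early genes are transcribed within minutes of a stimulus.

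The other lists ran from 9.1% abundant for Wnt and Notch genes to 42.3% for lysosomal genes. Of 34 matrix genes 9 were abundant, among them the laminin chain LAMA1 (98.92 ± 0.05) and CRISPLD2 (99.70 ± 0.14), while COL1A2, NID1, NID2 and DCN were above the limit in no channel. In the IGF system IGFBP7 (98.39 ± 0.20) and STC1 were abundant, IGF1 was above the limit in 7 channels and IGF1R was at 1.38 times. Of 27 nuclear and membrane steroid receptors 5 were abundant (3 with the middle probe), PPARG (97.19 ± 0.39) and the progesterone component PGRMC1 (95.62 ± 0.43) among them. ESR1 was above the limit in no channel and ESR2, the granulosa oestrogen receptor, was at 1.17 times. Of 33 Wnt and Notch genes 3 were abundant, CTNNB1, NOTCH2 (98.64 ± 0.18) and APC. Of 25 oxygen and angiogenic genes 10 were abundant, with HIF1A, BNIP3 and PGF, the placental growth factor (98.50 ± 0.77), and both receptors FLT1 and KDR were above the limit in no channel. Of 26 lysosomal genes 11 were abundant, SCARB2 and the cathepsin CTSZ among them.

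The 3 RNAs of the same 20 h condition differed in many genes. An F-test over the 9 labelled samples (limma, dye as covariate, 8 residual degrees of freedom) called 6691 of 10282 genes (65.1%) at an adjusted p under 0.05, 2251 of them abundant and 4440 middling. Most differences were small: the median range over the 3 RNAs was 0.36 log2 units in the called genes, 530 differed by at least 2-fold and 73 by at least 4-fold. The error of the test is the spread between the dye measurements of a sample, which may be technical, so its p-values say nothing of the spread between animals. Because it compares all 9 labelled samples, it also takes in differences between repeats of 1 RNA, which reached 669 genes in a pair. Over the tested genes the median SD was 0.05 log2 units among the 3 labelled samples of an RNA and 0.12 among the 3 RNAs. With channels scaled to their median in place of quantile normalization the test called 1089 genes. In these bulk samples fewer cells of a type and less RNA per cell cannot be told apart.

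By the highest mean, called genes fell to RNA 1 in 1888 cases (18.4% of tested genes), to RNA 2 in 1635 (15.9%) and to RNA 3 in 3168 (30.8%). As shares of the called genes these were 28.2%, 24.4% and 47.3%. The order depended on the scaling: of the same called genes 1006, 4021 and 1664 were highest in RNA 1, 2 and 3 with channels scaled to the median, which is 15.0%, 60.1% and 24.9%. Of the 16 genes with the smallest p or the largest SD, 12 were highest in RNA 2, 2 in RNA 1 and 2 in RNA 3. BOLA-DQB, a class II histocompatibility beta chain, had log2 signals of 7.88, 13.56 and 7.90 in RNA 1, 2 and 3, a range of 51.1-fold (adjusted p = 1.64e-10). BOLA-DQB was near the level of genes under background in RNA 1 and 3, at 1.03 and 0.97 times the limit, so this fold is set against background. GSTO1, an omega class glutathione transferase, had 8.15, 12.48 and 8.24, a range of 20.0-fold (adjusted p = 9.29e-15). TMEM130, a membrane protein, had 7.92, 7.80 and 11.93, and SIL1, an exchange factor of the chaperone HSPA5, had 9.84, 9.06 and 12.39, so both were highest in RNA 3. PCDH8, a protocadherin, had 11.99, 8.98 and 8.84, and BOLA, a class I histocompatibility gene, had 12.35, 10.04 and 11.46, so both were highest in RNA 1.

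**Figure D5:**
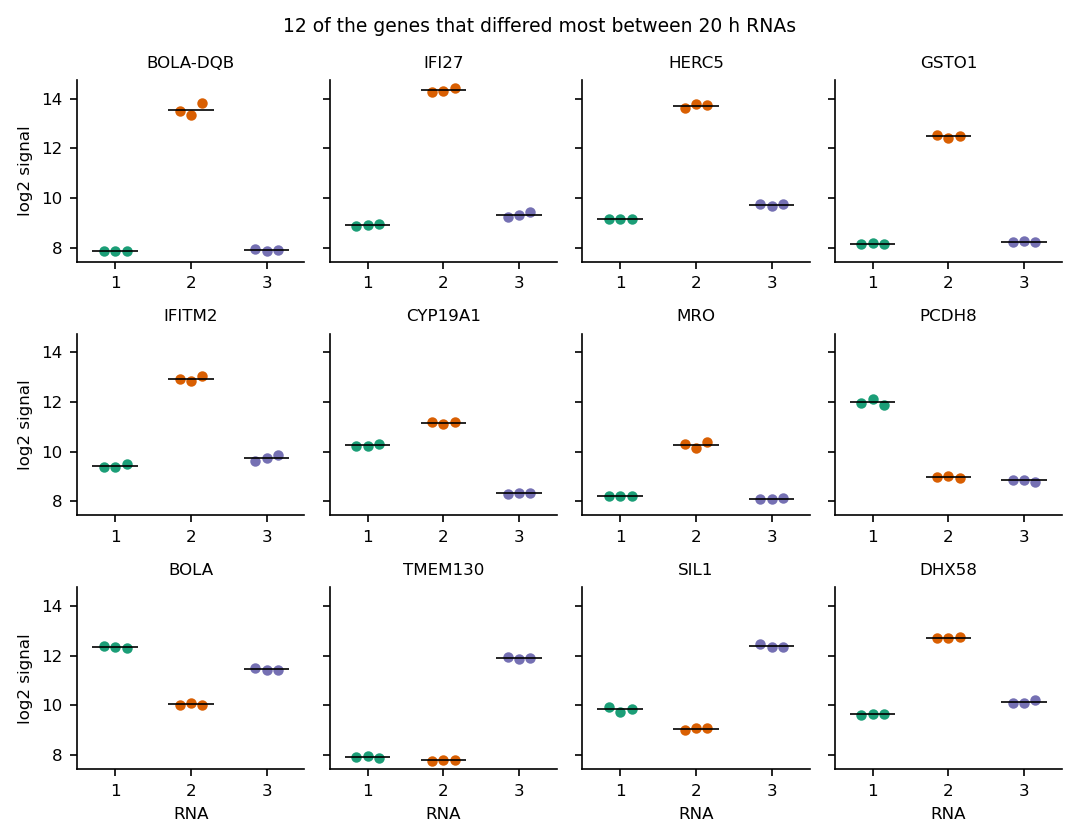
Log2 signal of 12 of the 16 genes that differed most between the 20 h RNAs, 1 point per labelled sample (mean of both dyes), 3 samples per RNA, with the mean of each RNA as a line and the same axis in every panel. Repeats of an RNA lie within a fraction of a log2 unit while RNAs differ by up to 5.68 log2 units in BOLA-DQB. That gene was at 1.03 and 0.97 times the background limit in RNA 1 and 3.

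Interferon response genes were higher in RNA 2. This list was written after the values had been seen, so it is a description and its counts are no support. Of 39 such genes with a probe 30 entered the test, 27 were called, against 65.1% of all tested genes. All 27 were highest in RNA 2, against 24.4% of all called genes. They were so too with channels scaled to the median, against 60.1% of all called genes, and to the 75th percentile, against 25.7%. IFI6, IRF9 and USP18 were above the limit in 9, 9 and 10 channels. Such genes may have entered the test only through RNA 2, where they were highest, so the filter favoured these counts. Their medians over the tested genes were 8.53, 10.59 and 8.74 log2 units in RNA 1, 2 and 3, and 21 differed by at least 2-fold. IFI27, an interferon-induced mitochondrial protein, had 8.92, 14.34 and 9.32, a range of 42.8-fold (adjusted p = 1.44e-09). HERC5, the ligase that attaches ISG15, had 9.16, 13.71 and 9.73 (adjusted p = 8.5e-11). OAS1Z, an oligoadenylate synthetase, had 8.10, 11.08 and 8.03, and the RNA sensors IFIH1 and DHX58 had 9.17, 12.18 and 8.97 and 9.64, 12.72 and 10.14. RSAD2, viperin, was above the limit in only the 6 channels of RNA 2 and so was not tested, with 7.62, 13.16 and 7.68. MX2, IFI35 and SAMD9 were tested and not called, with ranges of 0.04, 0.07 and 0.02 log2 units. B2M, the light chain of class I molecules, had 12.87, 14.47 and 12.83 (adjusted p = 3.35e-08). Of the 14 tested genes of antigen presentation 13 were called, against 65.1% of all tested genes. Of the 13, 6 were highest in RNA 2, against 24.4% of all called genes, 4 in RNA 1 and 3 in RNA 3. Under median scaling 7 (53.8%) were highest in RNA 2, which is under the 60.1% of all called genes. The summed level of the leukocyte list was 23.7 times the limit in RNA 2, against 24.3 in RNA 1 and 23.4 in RNA 3. Of its 23 genes 10 were above the limit in no channel, and 1 stayed above a doubled limit in at least 9. These sums thus hold mostly signal near the limit, and a difference in leukocytes was not tested.

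Genes of granulosa identity and steroid synthesis differed between the RNAs in both directions. CYP19A1 had log2 signals of 10.26, 11.17 and 8.32 in RNA 1, 2 and 3, a range of 7.18-fold (adjusted p = 8.77e-13), and aromatase was at 15.2 times the limit in RNA 2 and at 1.58 times in RNA 3. INHBB had percentiles of 93.89, 97.51 and 87.01, a range of 8.00-fold in signal (adjusted p = 1.72e-11). FST had log2 signals of 13.07, 14.38 and 12.20 (adjusted p = 1.03e-07) and CCND2 had 13.61, 14.02 and 11.90 (adjusted p = 8.35e-07). In each of these genes RNA 2 was highest and RNA 3 lowest. HSD17B1 ran the other way, with 9.67, 8.88 and 11.08 (adjusted p = 2.98e-09). AMH had 10.23, 10.11 and 11.41 (adjusted p = 6.08e-10) and CYP11A1 9.79, 10.37 and 11.54 (adjusted p = 3.64e-10), and both were highest in RNA 3. MRO, the maestro gene of the gonad, was highest in RNA 2 with 8.22, 10.28 and 8.11. FSHR differed by 0.10 log2 units between the RNAs (F-test over the 9 labelled samples, adjusted p = 0.0178). INHBA spanned 0.64 log2 units and did not pass the test (adjusted p = 0.253). Its signals lay near the top of the range, where signals crowd, so this does not show even levels. Of 18 called genes of granulosa and cumulus identity 14 were highest in RNA 2, against 24.4% of all called genes. Under 75th percentile scaling 12 were, against 25.7%, and under median scaling 15 were, against 60.1%.

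Most division genes that differed were highest in RNA 3. Of 29 called mitosis genes 25 were, against 47.3% of all called genes, and 20 were under median scaling, against 24.9%. Of 31 called replication genes 24 were highest in RNA 3, and 16 under median scaling, against the same shares. ASPM, a spindle pole protein, had 11.97, 11.91 and 12.97 log2 units and RRM2, a subunit of ribonucleotide reductase, 11.79, 11.42 and 12.59. UBE2C, the ubiquitin-conjugating enzyme of mitotic exit, ran the other way, with 11.80, 11.14 and 10.53. Among other genes highest in RNA 3, VCAN had 10.72, 11.23 and 12.67 log2 units (adjusted p = 1.08e-10), and LUM 9.99, 11.92 and 12.20 (adjusted p = 2.01e-11), lowest in RNA 1. ID1, a target of BMP signalling, had 7.97, 7.96 and 10.38, and the lysosomal protease CTSD 10.82, 10.69 and 12.83.

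Immediate early and sterol genes were mostly lowest in RNA 2 after quantile normalization, but fewer were so under median scaling. Of 18 called immediate early genes 13 were highest in RNA 1, against 28.2% of all called genes, and 11 under median scaling, against 15.0%. Of the same 18, 12 were lowest in RNA 2, against 39.2% of all called genes, and 8 (44.4%) under median scaling, against 12.7%. Another 8 were lowest in RNA 3 under median scaling, near the 42.4% of all called genes. ATF3 had 14.90, 13.41 and 14.41 log2 units (adjusted p = 9.35e-07), KLF4 11.45, 9.76 and 11.26 (adjusted p = 6.84e-11), and JUN 10.85, 9.11 and 8.97 (adjusted p = 8.14e-10). All 23 sterol genes were called, against 65.1% of all tested genes. Of these 19 were lowest in RNA 2, against 39.2% of all called genes, and 10 under median scaling, against 12.7%. INSIG1 had 12.63, 11.11 and 13.01 (adjusted p = 5.97e-09) and IDI1, an isomerase of the mevalonate pathway, 13.02, 12.08 and 12.40. Of 39 called ribosomal protein genes 28 were highest in RNA 1 after quantile normalization, against 28.2% of all called genes. Under median scaling 11 were, against 15.0%, and 22 (56.4%) were highest in RNA 2, against 60.1%. The RNA in which most were highest thus depended on the scaling, as it did over all called genes.

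Many probes differed a little between the dyes. Of 10282 genes 7085 (68.9%) differed between Cy5 and Cy3, 3913 higher in Cy5 and 3172 higher in Cy3, and 46 of them by at least 2-fold (limma, adjusted p under 0.05). With median scaling 3598 differed, 2804 of them higher in Cy5. On the 44 h and 92 h arrays the Cy5 and Cy3 channels of a sample lay on different slides, as did those of number 3 of the 68 h arrays. Dye and slide cannot be told apart in these samples. Fewer genes differed with slide as a fixed block, as given below. IL17RC, an interleukin 17 receptor subunit, had a mean of 9.85 ± 0.33 log2 units in Cy5 and 12.09 ± 0.42 in Cy3 (SD over the 9 labelled samples, which repeat 3 RNAs, adjusted p = 3.83e-09, limma), and SLC2A6 and MYCL differed in the same direction, with -2.13 and -2.05 for Cy5 minus Cy3. RPS16 had 15.14 ± 0.03 in Cy5 and 13.18 ± 0.45 in Cy3 (adjusted p = 1.26e-07, limma), higher in Cy5 in 9 of 9 samples, as was LOC513039, and LAPTM4B in 8 of 9. The Cy5 values of these 3 genes lay at the top of the range, where order is not readable. The abundant class held 2580 genes from Cy5 alone, 2581 from Cy3 alone, and 2517 of the 2570 genes were kept in each.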

How the data were processed

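Cumulus cell RNA was measured on 18 two-colour arrays on 5 slides. The deposited scanner tables give 2 values per spot and channel, a mean raw intensity and a mean background intensity, per the file headers. How the scans were made and what the submitters did with these values afterwards was not given in the sources used here. From the dye labels came the channel of the 20 h RNA. Control spots were left out except for the limit of background, and 2 to 24 spots per array that the scanner tables mark as ignored were dropped. Probes were named from the platform table and updated to RefSeq (ARS-UCD2.0): 20068 of 21790 symbols were current, 1644 updated and 78 unmatched. No coordinates or sequences are given, and the planned description of protein length and promoter composition by class was not made, since the tables it needs were not used here.

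Levels used the plain difference of intensities and percentiles, averaged over both dyes of a sample, then over samples. Tests used limma 3.58.1 in R 4.3.3 on log2 intensities after normexp (offset 50) and quantile normalization over the 18 channels, for genes above background in at least 9 channels, with Benjamini-Hochberg adjustment. A repeat on simulated data recovered 95% of genes changed by 0.5 log2 units between samples and 99% of those changed by 1, with 12 calls among the unchanged of 10282 genes. The change was set in number 1 of each array set, which by profile mixes RNA 1 and RNA 2. Noise was drawn as normal and independent, and no normalization followed. The repeat thus checks the fit alone and does not bear on how many of the 6691 calls are right. Whether that recovery holds with channels scaled to their median, where 1089 genes were called in place of 6691, was not tested. Array precision is limited by the number of arrays.

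Percentile correlations between samples were 0.943 to 0.98 within the 3 sets read as 1 RNA each and 0.925 to 0.964 otherwise (18 and 36 pairs of like dye, no test). Deviations of same-numbered samples from the mean correlated from -0.41 to -0.08 between the 44 h and 68 h arrays, from -0.05 to 0.47 between the 44 h and 92 h arrays and from -0.46 to -0.07 between the 68 h and 92 h arrays. Samples were matched across array sets by profile: numbers of the 44 h and 92 h arrays matched, and those of the 68 h arrays were shifted. Deviations correlated from -0.17 to 0.63 within the matched sets and from -0.46 to -0.03 in the other pairs, so these ranges overlap. Both dyes of a number within an array set were taken as the same RNA.

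Named genes are the 30 of highest percentile, list members, the 10 of smallest p and the 10 of largest SD between samples, 3 dye differences in each direction and 2 genes on each side of the abundant border. The 43 lists and the members were chosen with earlier results of these data known, and 2 lists (interferon, antigen presentation) were written after the 20 h values were seen. Alternatives covered the limit, background correction, normalization, probe choice, dye, slide, array set and replicate number.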

Additional observations from a re-analysis of the deposited data

How the results depend on the processing

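The abundant class held 2551 to 2587 genes with 1 replicate number left out, and the other choices of limit, dye, slide and array set left between 2570 and 2581. It moved to 1569 genes with the middle probe of each gene, 1279 with the top 5% of probes and 4709 with the top 20%. Genes under background numbered 1370 with the 95th percentile of the negative controls as limit, 3953 in the Cy5 channels alone, and 8123 with the limit doubled, a choice made after seeing the data that also left 3043 middling and 1477 borderline genes. Leaving out a replicate number gave 7642 to 7916 middling genes, 2277 to 2339 borderline genes and 2435 to 2645 under background. Numbers do not follow the RNAs across array sets, so all 3 RNAs stayed in every run without 1 replicate number. Dependence on a single RNA was not tested by these runs. Genes that differed between 20 h samples numbered 6050 to 6336 without 1 replicate number and 1089 with median scaling, and the cause was not tested. With the array set as a block 6443 differed. Genes that differed between dyes numbered 6096 to 6539 without 1 replicate number, 3598 with median scaling, 4151 with slide as a fixed block and 3742 with no replicate block. All 203 alternative tests of the 16 named genes stayed past the threshold, and so did all 78 of the named dye differences, with none reversed. These genes were picked as the most extreme of the same tests on the same channels, so their passing was largely set in advance. It is no separate support. Of the alternative percentiles of named genes 57 moved by more than the SD over the 3 RNAs and 303 by less.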

Other observations

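Probes without a gene symbol held 1436 abundant members of 22004 (6.5%), against 2834 of 21790 probes with a symbol (13.0%). These probes can be counted but not named here.

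Among genes of hormones and secreted proteins from other organs, the following 3 were middling and differed between RNAs. POMC, the corticotropin precursor, had log2 signals of 8.38, 8.31 and 10.66 in RNA 1, 2 and 3 (limma, adjusted p = 7.28e-10), a range of 5.10-fold, and was highest in RNA 3 together with APOA1, the main protein of high-density lipoprotein, with 9.57, 9.32 and 11.52 (limma, adjusted p = 5.45e-11). F2, prothrombin, had 11.00, 9.90 and 10.42 (limma, adjusted p = 5.34e-09). ALB was above the limit in 5 of 18 channels and SERPINA1 in none.

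NR3C1, the glucocorticoid receptor, had 9.89, 11.21 and 8.94 log2 units (limma, adjusted p = 0.00143), and TCF21, a mesenchymal transcription factor, 10.39, 11.20 and 9.13 (limma, adjusted p = 3.64e-11), both in the order of CYP19A1. DKK3, a secreted Wnt modulator, was above the limit in 8 channels and was not tested, with 7.74, 9.75 and 7.71.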
